A study of Mus musculus with 3 samples.

Results

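Genes that drive and restrain the cell cycle were described in RNA bound to chromatin from macrophages, phagocytes that had been grown in culture from bone marrow of C57BL/6J mice. The members were 46 genes chosen by symbol, of 55536 annotated mouse genes and 22028 protein-coding genes in the tables, and all 46 were found. They were divided by role into 17 S-phase genes, 15 mitotic genes, 8 G1 cyclins and kinases and 6 regulators. The cells had been stimulated for 30 min with lipid A at 100 ng/ml, the part of bacterial endotoxin that is sensed by the receptor TLR4. Ribosomal RNA was removed and total RNA of the chromatin fraction was sequenced in 3 libraries of 1 group, made from 1 µg (library 1), 250 ng (library 2) and 500 ng (library 3) of RNA. Every library was of stimulated cells, so the values below are levels and contrasts within libraries. The labels number the libraries as biological replicates of a single donor record, and the spread between them may be partly technical.

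A dividing cell passes from G1 through S phase, in which its DNA is copied, to mitosis. Cyclin D kinases (Cdk4 and Cdk6) and cyclin E kinase (Cdk2) inactivate the retinoblastoma protein, which releases E2F factors to switch on genes for nucleotide supply and DNA replication. Mitotic genes are switched on later, through promoters that often carry a CHR element (cell cycle genes homology region) and CCAAT boxes. The inhibitors encoded by Cdkn1a and Cdkn1b hold cyclin-dependent kinases back. Macrophages in culture divide in response to the growth factor receptor encoded by Csf1r, and bulk RNA cannot tell fewer dividing cells from less RNA per dividing cell.

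The promoters of the leading S-phase and mitotic genes are shown because these groups are known for different promoter elements. The S-phase members with the highest level were Tk1 and Pcna, and the mitotic ones were Mki67 and Top2a. Each sequence runs 5′ to 3′ along the gene, from 250 bases before the annotated start to 50 after it, and was taken from RefSeq on GRCm38.p6. The regions are chr11:117825965-117826264 (Tk1), chr2:132253131-132253430 (Pcna), chr7:135716330-135716629 (Mki67) and chr11:99024140-99024439 (Top2a), all on the minus strand. Capitals mark matches to the searched letters of an E2F site, a CHR element or a CCAAT box on either strand.
Tk1: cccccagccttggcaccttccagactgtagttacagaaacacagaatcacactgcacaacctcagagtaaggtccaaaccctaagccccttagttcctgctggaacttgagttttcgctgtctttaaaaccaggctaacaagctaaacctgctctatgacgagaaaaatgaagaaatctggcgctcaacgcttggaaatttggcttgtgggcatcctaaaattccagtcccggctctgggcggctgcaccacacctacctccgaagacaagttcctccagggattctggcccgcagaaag
Pcna: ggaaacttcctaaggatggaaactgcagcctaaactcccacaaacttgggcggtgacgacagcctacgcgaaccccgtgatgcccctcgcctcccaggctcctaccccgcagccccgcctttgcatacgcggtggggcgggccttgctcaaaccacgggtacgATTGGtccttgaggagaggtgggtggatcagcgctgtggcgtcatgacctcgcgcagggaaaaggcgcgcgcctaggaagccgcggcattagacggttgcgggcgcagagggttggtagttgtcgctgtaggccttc
Mki67: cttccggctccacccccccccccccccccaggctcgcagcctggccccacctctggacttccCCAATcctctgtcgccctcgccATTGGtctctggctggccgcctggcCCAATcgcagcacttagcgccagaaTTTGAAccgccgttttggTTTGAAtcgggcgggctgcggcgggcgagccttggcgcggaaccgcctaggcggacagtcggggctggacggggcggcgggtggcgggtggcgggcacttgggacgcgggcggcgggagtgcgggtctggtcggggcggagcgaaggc
Top2a: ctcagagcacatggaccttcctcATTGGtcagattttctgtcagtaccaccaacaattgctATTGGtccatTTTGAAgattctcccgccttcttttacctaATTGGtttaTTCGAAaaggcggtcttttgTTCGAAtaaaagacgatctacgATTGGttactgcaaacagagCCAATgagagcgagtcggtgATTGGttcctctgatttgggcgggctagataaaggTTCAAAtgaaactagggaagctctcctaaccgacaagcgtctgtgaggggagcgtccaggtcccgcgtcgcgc

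No capital stands in the Tk1 promoter, and the Pcna promoter holds 1 CCAAT box. In the Mki67 promoter 2 CHR matches begin 116 and 98 bases before the start, downstream of 3 CCAAT boxes. The Top2a promoter holds 4 CHR matches and 6 CCAAT boxes. Over the members, 36 of 46 had a promoter in the RefSeq table, some with more than 1 start, which gave 40 promoters. An E2F site was searched as TTTCCCGC, TTTGGCGC, TTTCGCGC or TTTGCCGC, a CHR element as TTTGAA or TTCGAA, and a CCAAT box as CCAAT, on both strands and matches of different kinds were allowed to overlap. An E2F match was found in 7 of 15 S-phase promoters (46.7%) and 1 of 13 mitotic promoters (7.69%), against 744 of 32851 promoters in the whole table (2.27%). A CHR match was found in 2 of 15 S-phase promoters (13.3%) and 10 of 13 mitotic promoters (76.9%), against 19.2% of the table. CCAAT boxes were found in 10 of 15 S-phase promoters and 12 of 13 mitotic promoters, against 37.4% of the table. Mcm6 held 3 E2F matches, the most of any member, and Cdk1 was the mitotic promoter with an E2F match. These counts describe letters in a window and were not tested, and they do not show a bound site.

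Most members were detected, at low levels. Detection meant an average of at least 10 expected counts over the libraries, which 42 of 46 members reached (91.3%), against 49.9% of protein-coding genes. The 4 members that did not reach it were Rfc4, Ccnb2, Cdc20 and Ccne1. Levels are given as TPM, an abundance that allows for gene length and has the same sum in every library. Of the 46 members, 32 had a mean of at least 1 TPM, 6 had at least 10 TPM, and Cdkn1a alone had at least 100 TPM. Of all 22028 protein-coding genes, 9143 had a mean of at least 1 TPM and 3659 had at least 10 TPM. Among detected members, 10 of 42 (23.8%) lay above 4.98 TPM, the median over detected protein-coding genes: 3 S-phase genes, 1 mitotic gene, 3 G1 cyclins and kinases and 3 regulators. The members together held 0.165% ± 0.031 (SD, n = 3) of expected counts, and the 4 with the most reads, Mki67, Cdkn1a, Cdk6 and Rb1, held 79.4% of that.

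Annotated genes held 16301150, 17033725 and 16205704 expected counts in libraries 1 to 3. A gene with no count could therefore hold up to 3 counts, or 0.184, 0.176 and 0.185 CPM (counts divided by library size). On the TPM scale the median detected protein-coding gene lay 0.39 below its own mean in log2 in library 1, 0.10 below it in library 2 and 0.49 above it in library 3. Accordingly 39 of 46 members had their highest TPM in library 3 and 41 their lowest in library 1. The members kept their order between libraries, with Spearman's rho across the 46 members of 0.96 for each pair of libraries, a description over genes that share libraries. All 10 macrophage markers were detected, from Sirpa at 673 ± 84.5 TPM to Fcgr1 at 7.61 ± 4.61. Of 8 markers of myeloid progenitors, the cycling cells of marrow, Kit was detected, and the 8 together summed to 0.68, 0.78 and 1.28 TPM in libraries 1 to 3. Markers of neutrophils (1 of 6 detected, 0.81 to 1.90 TPM in sum), T and B cells (0 of 6), erythroid cells (1 of 5, Alas2, 3.33 to 5.73 TPM in sum) and stroma (3 of 5, 0.12 to 1.13 TPM in sum) were low, and Klf1 and Cd3e were at 0 in all libraries. These levels are of the first deposited quantification, and in the second the T cell gene Cd3d averaged 14.1 TPM, against 0.01 TPM in the first. Of the progenitor markers, Mpo averaged 1.085, Cd34 1.03 and Flt3 1.01 TPM in the second, against 0.073, 0.063 and 0.03 in the first. Prtn3 and Elane were lower in the second.

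**Figure D1:**
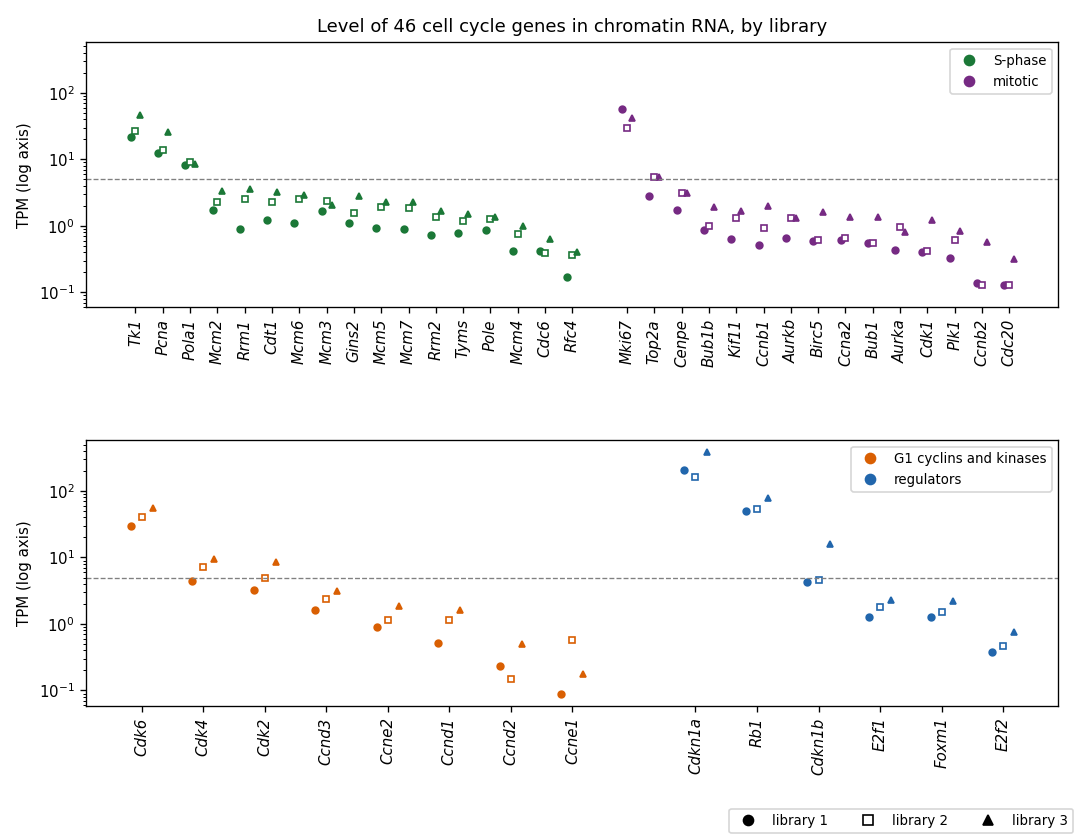
TPM of each member on a log axis, 1 point for each of 3 libraries, ordered within its role group by mean. The dashed line is the median over detected protein-coding genes (4.98 TPM); Cdkn1a stands highest and Mki67 stands apart from the other mitotic genes.

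S-phase genes were led by the pair that serves nucleotide supply and the replication clamp. Tk1 (ENSMUSG00000025574.13, chromosome 11, 117815526 to 117826092), the thymidine kinase of the salvage pathway, had 21.8, 26.7 and 46.8 TPM in libraries 1 to 3. Its coding transcript took 11.8% of that TPM. Transcript models with a retained intron, of 659 to 2490 bases, took the rest, so its level rests in part on short models. Pcna (ENSMUSG00000027342.14, chromosome 2, 132249162 to 132253314), the sliding clamp that holds polymerases on DNA, had 12.6, 13.8 and 25.4 TPM. Both stood highest in library 3, as most members did on this scale, and together they made up 61.2% ± 4.91 (SD, n = 3) of the summed S-phase TPM. Pola1, the catalytic subunit of the polymerase that makes primers, had 8.10, 9.16 and 8.51 TPM, with nearly equal libraries and a mean of 8.59 ± 0.53. Below these 3 genes there was a step in the first quantification, and the next was Mcm2 at 1.73, 2.30 and 3.36 TPM. In the second, Rrm1 averaged 10.3 TPM and Tyms 6.33 TPM, between Pola1 at 12.8 and Mcm2 at 3.02.

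Mcm2 to Mcm7 encode the 6 subunits of the replicative helicase, which assembles in equal amounts. Their mean TPM ran from 2.46 ± 0.83 for Mcm2 through 2.18 ± 0.95 for Mcm6, 2.03 ± 0.35 for Mcm3, 1.72 ± 0.71 for Mcm5 and 1.70 ± 0.72 for Mcm7 to 0.73 ± 0.29 for Mcm4. Neighbours in this order differed by less than the SD of either, apart from Mcm4. Mcm5 had 0.93, 1.93 and 2.31 TPM in libraries 1 to 3. Mcm4 was lowest of the 6 in each library, and the ratio of the highest to the lowest subunit was 4.12, 3.36 and 3.36 in libraries 1 to 3. The loading factors were unequal, with Cdt1 at 1.21, 2.28 and 3.26 TPM and Cdc6 at 0.42, 0.39 and 0.64 TPM. Cdc6 lay below Cdt1 in 3 of 3 libraries. Gins2, a subunit of the GINS complex that activates the helicase, had 1.12, 1.58 and 2.82 TPM.

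Ribonucleotide reductase, which makes deoxynucleotides, was low in both subunits in the first deposited quantification, from which all levels here come unless the second is named. Its large subunit gene Rrm1 had 0.91, 2.57 and 3.62 TPM, and its small subunit gene Rrm2, whose product limits the enzyme in cycling cells, had 0.74, 1.35 and 1.69 TPM. In the second quantification Rrm1 averaged 10.3 TPM, above the median of 8.01 TPM over detected protein-coding genes there, and Rrm2 averaged 1.40 TPM. Tyms, the thymidylate synthase of the de novo pathway, had 0.77, 1.18 and 1.52 TPM, well under Tk1 of the salvage pathway in each library. The leading-strand polymerase gene Pole had a mean of 1.15 ± 0.25 TPM. Rfc4, a subunit of the clamp loader, was the S-phase gene below detection, with 3, 9 and 7 expected counts and 0.17, 0.36 and 0.41 TPM. The exact 95% Poisson intervals of those counts, which cover counting error only, were 0.619 to 8.77, 4.12 to 17.1 and 2.81 to 14.4.

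Mitotic genes were low except for Mki67. Mki67 (ENSMUSG00000031004.8, chromosome 7, 135689784 to 135716361), which encodes the chromosome-coating protein Ki-67, had 56.8, 29.9 and 42.4 TPM from 14881, 7186 and 6716 expected counts. It was the member with the most reads on average, though in library 3 Cdkn1a had more, at 8077 expected counts. Library 1 held about as many Mki67 counts as the other libraries together. Top2a, the topoisomerase that untangles sister chromatids, followed with 2.78, 5.41 and 5.44 TPM. Mki67 exceeded Top2a 20.4-fold, 5.52-fold and 7.78-fold in libraries 1 to 3, with a mean ratio of 11.2, or 6.65 without library 1. Mki67 alone made up 70.8% ± 11.9 of the summed mitotic TPM. No other annotated gene overlaps the exons of Mki67.

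The motor and checkpoint genes came next. Cenpe, a kinetochore motor, had 1.71, 3.08 and 3.08 TPM, and Bub1b, a checkpoint kinase, had 0.86, 1.00 and 1.94 TPM. Kif11, the motor that separates spindle poles, averaged 1.22 ± 0.53 TPM, and Bub1 averaged 0.82 ± 0.46. The Aurora kinase genes lay close together, with Aurkb at 0.66, 1.30 and 1.30 TPM and Aurka at a mean of 0.73 ± 0.27, and the mitotic kinase gene Plk1 had 0.60 ± 0.26.

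Cyclin genes of mitosis and their kinase were near the lower limit in the first quantification. Ccnb1 had 0.52, 0.94 and 2.01 TPM, Ccna2 had 0.61, 0.65 and 1.37, and Cdk1, their kinase, had 0.41, 0.42 and 1.21. In each of these library 3 was highest, and without it the means were 0.73 TPM for Ccnb1 and 0.415 for Cdk1. Birc5, the survivin gene of the chromosomal passenger complex, behaved alike at 0.59, 0.62 and 1.60 TPM, or 0.605 without library 3. Ccnb2 was below detection at 5, 4 and 12 expected counts and 0.14, 0.13 and 0.57 TPM, with a mean of 0.135 TPM without library 3. Cdc20, the activator of the anaphase-promoting complex, was below it too, at 3, 5 and 8 expected counts and 0.13, 0.13 and 0.32 TPM. In the second quantification Cdk1 averaged 6.82 TPM and Birc5 4.23. Ccnb1 averaged 1.62 TPM there, Ccna2 1.16, Ccnb2 0.79 and Cdc20 0.35.

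Set side by side, S-phase genes lay above mitotic genes in each library. The S-phase median was 0.93, 1.93 and 2.32 TPM, against a mitotic median of 0.59, 0.94 and 1.37 TPM. On the log2(TPM + 0.1) scale, S-phase minus mitotic was 0.58, 0.96 and 0.72 in libraries 1 to 3, a mean of 0.75 ± 0.20 (SD, n = 3), or 1.69-fold. The difference was positive in 3 of 3 libraries and is a description without a test, since members were chosen with earlier results known. At least 1 TPM was reached by 14 of 17 S-phase genes and 7 of 15 mitotic genes, or by 13 and 3 without library 3. The groups overlapped widely: 14, 14 and 13 of 17 S-phase genes lay above the mitotic median, while 3 of 15 mitotic genes (Mki67, Top2a and Cenpe) lay above the S-phase median in each library. Summed rather than ranked, S-phase genes had 55.5, 72.4 and 109.94 TPM, against 67.2, 47.0 and 65.9 TPM for mitotic genes, so library 1 had the opposite order. Leaving out Mki67, the mitotic sum was 10.4, 17.1 and 23.5 TPM. Counted without length correction, the difference of medians was larger, at 1.62 in log2.

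**Figure D2:**
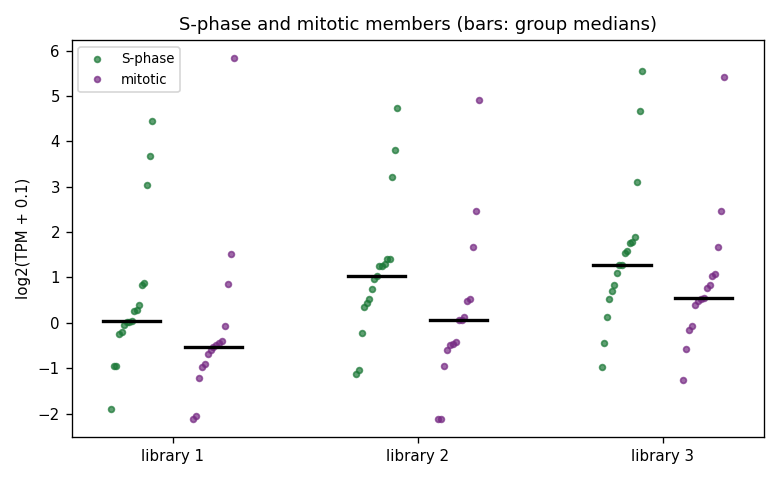
Members of the S-phase group (green, left of each pair) and the mitotic group (purple, right) on the log2(TPM + 0.1) scale in each library; black bars are group medians. The S-phase bar lies above the mitotic bar by 0.58, 0.96 and 0.72, and the single high mitotic point is Mki67.

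Kinases of G1 had higher TPM than their cyclins in the first quantification, an order that did not hold for Ccnd2 on another deposited scale. Cdk6 (ENSMUSG00000040274.11, chromosome 5, 3341485 to 3531008) had 30.1, 40.3 and 55.9 TPM, and Cdk4, which shares its cyclin D partners, had 4.36, 7.12 and 9.36 TPM. Cdk6 exceeded Cdk4 by 6.17-fold ± 0.65 (SD, n = 3) in TPM, with separate ranges. A Cdk6 transcript of 697 bases took 40.2% of the gene's TPM from 184, 186 and 142 counts. The Cdk6 transcript of 11525 bases took 21.9% from 2033, 1693 and 2869 counts, so the fold rests in part on a short model. In expected counts Cdk6 was also higher, with 2624, 2382 and 3362, against 166, 219 and 180.5 for Cdk4. Cdk2, the partner of cyclins E and A, had 3.29, 4.96 and 8.60 TPM and overlapped Cdk4. Among D-type cyclins Ccnd3 led at 1.63, 2.40 and 3.18 TPM, Ccnd1 had 1.09 ± 0.55, and Ccnd2 had 0.23, 0.15 and 0.50, or a mean of 0.19 without library 3. The order of the D-type cyclins depends on the scale: Ccnd2 averaged 3.70 TPM and Ccnd3 2.76 TPM in the second quantification. On the posterior mean TPM that is deposited beside the TPM of the first, Ccnd2 averaged 31.8, above Ccnd3 at 5.64, Cdk4 at 7.86 and Cdk2 at 5.68. The upper credible bounds of Ccnd2 there were 59.1, 85.0 and 135.6 in libraries 1 to 3, so its level is poorly set. Of the E-type cyclins Ccne2 had 1.31 ± 0.51 TPM. Ccne1 was below detection at 4, 11 and 5 expected counts and 0.09, 0.58 and 0.18 TPM, and its mean of 0.283 TPM was 0.135 without library 2.

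The regulators included the members with the highest mean levels, Cdkn1a and Rb1. Cdkn1a (ENSMUSG00000023067.14, chromosome 17, 29090976 to 29100727), which encodes the inhibitor p21, had 210.28, 164 and 383 TPM. It stood above every other member in each library and exceeded Cdkn1b, the gene of the related inhibitor p27, by 49.4-fold, 36.3-fold and 24.3-fold. Cdkn1b had 4.26, 4.53 and 15.7 TPM, so library 3 was high beyond the general shift of that library, and the mean of 8.18 TPM was 4.395 without it. Rb1 (ENSMUSG00000022105.6, chromosome 14, 73183673 to 73325822), the retinoblastoma gene, had 49.2, 52.9 and 79.2 TPM. Its main coding transcript took 41.3% of that TPM, and retained-intron models of 355 and 946 bases took 32.1 and 26.6%. Those models held 11.5, 12.1 and 10.8% of its counts, so its TPM rests in part on short models. Genes of the E2F factors that the Rb1 product binds were low: E2f1 had 1.28, 1.82 and 2.27 TPM and E2f2 had 0.38, 0.47 and 0.76. Foxm1, a factor for mitotic genes, had 1.28, 1.5 and 2.25 TPM, which overlapped E2f1. In the second quantification Foxm1 had 1.44, 1.74 and 2.90 TPM and E2f1 had 3.03, 3.66 and 6.79 TPM, with ranges that did not overlap.

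The second deposited quantification, made from the read files per the deposited notes, gave higher levels for most members. The median ratio of second to first mean TPM was 1.33 over detected members, against 1.41 over detected protein-coding genes, and 38 of 42 were higher in the second. Over 4-fold differences were found for 5 of 42 detected members (11.9%), against 7.05% of detected protein-coding genes. In the second quantification Rrm1 had 7.96, 8.05 and 14.9 TPM, Tyms had 7.21, 3.99 and 7.80, and Birc5 had 3.51, 2.80 and 6.37. Cdk1 had 6.20, 5.35 and 8.91 TPM there, and Ccnd2 had 5.67, 2.22 and 3.21, which was 12.6 times its first mean. The levels of these 5 genes therefore depend on the quantification, and the cause was not tested. Among undetected members, Rfc4 (1.57, 1.12 and 2.58 TPM) and Ccne1 (1.37, 2.06 and 4.59 TPM) were also over 4-fold higher there, and all 46 members passed the count minimum in the second. Gins2 went the other way, with a mean of 0.869 TPM in the second against 1.84 in the first.

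**Figure D3:**
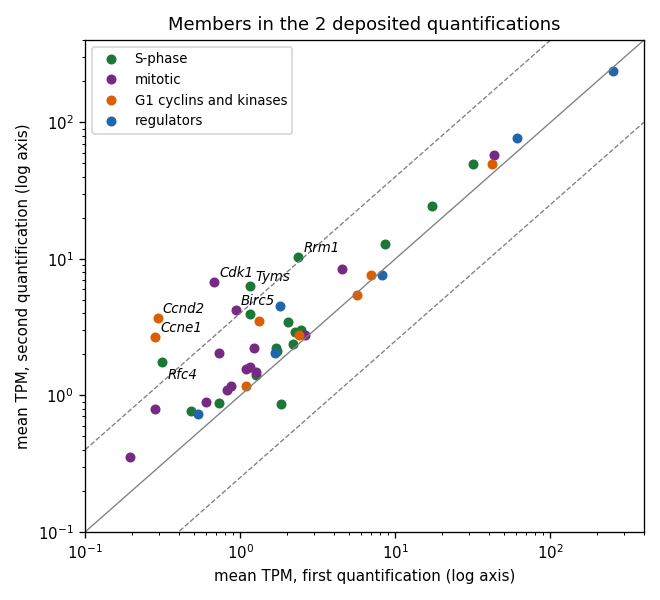
Mean TPM of each member over 3 libraries in the first (x) and the second (y) deposited quantification, both on log axes, with equality as a solid line and 4-fold differences as dashed lines. The 7 named members lie above the upper dashed line.

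Transcript models with a retained intron carried many of the counts of some members. A transcript was called the main one if it had the highest mean percent of the gene's TPM. It was not annotated as protein coding for 12 of 42 detected members (28.6%), against 29.2% of detected protein-coding genes, a share near the background. By role these were 6 S-phase genes (Cdt1, Gins2, Mcm5, Rrm2, Tk1 and Tyms), 3 mitotic genes (Aurkb, Ccna2 and Ccnb1), 3 G1 genes (Ccnd2, Ccnd3 and Cdk4) and 0 regulators. All but Ccna2, with a processed transcript, had a retained-intron model as the main one. The rank is by TPM, so a short model can be the main one on few counts. That of Gins2 held 103, 119 and 156 counts in libraries 1 to 3. That of Mcm5, of 595 bases, held 1.78, 4.04 and 8.93, and that of Aurkb, of 879 bases, held 4.26, 3.42 and 5.27. A coding transcript of Ccna2 held 15.6, 17.7 and 20.2 counts, against 7.01, 4.57 and 7.32 on its main one. The main transcript was the same in all libraries for 26 of 46 members, so for the others it rests on the library. The list also depends on the quantification. In the second, a coding transcript of Tyms held 460 of 572, 316 of 413 and 358 of 536 estimated counts in libraries 1 to 3. A coding transcript of Ccnd2 held 765 of 788, 505 of 513 and 377 of 394 there. The second had 16 members with a noncoding main transcript.

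The main model of Gins2 took 100, 90.2 and 100% of the gene's TPM in libraries 1 to 3. In the second quantification it held 2.52 of 22.5, 26.0 of 39.0 and 39.4 of 56.2 estimated counts of the gene, and in library 1 a coding transcript held more, at 15.6. That of Cdt1 took 37.8, 30.2 and 98.1%, and thus varied widely. For Tk1 the main model took 27.4% ± 1.52 of TPM, but all retained-intron models together took 88.4, 87.1 and 85.7% of the gene's counts, close to each other in all libraries. Cdk4 was as steady, with 64.7, 65.4 and 64.4% of its counts on such models. The main transcript of Mki67 took 99.7, 100 and 100% of its TPM. Both annotated transcripts of Mki67 are protein coding, so its main transcript could not be noncoding, and its values are no contrast to Tk1 or Cdk4. No retained-intron model is annotated for Mki67, Cdkn1a, Cdkn1b, E2f1, E2f2, Mcm4, Birc5, Ccnb2, Plk1, Top2a and Ccne2.

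Among detected members with an annotated retained-intron model, the S-phase median share of counts on such models was 33.8, 21.4 and 23.5% over 15 genes, against a mitotic median of 9.33, 5.64 and 10.5% over 9 genes. The S-phase excess was 17.8 ± 5.95 percentage points (SD, n = 3) in the first quantification and was positive in 3 of 3 libraries, with 14.4 without library 1. It was not computed in the second quantification. The ranges in the first quantification overlapped, from 0.438% for Pola1 to 96.5% for Gins2 among S-phase genes and from 1.18% for Cenpe to 57.8% for Ccnb1 among mitotic genes. Over all 32 such members the median share was 16.9%, against 23.6% over 6777 detected protein-coding genes with such a model. More than 50% of counts lay on them for 8 of 32 members (25%), against 22.5% of those genes. The share of single models in the second quantification differed in both directions. In library 1 a retained-intron model of Rrm1 held 258 of 440 estimated counts, against 14 of 65 counts in the first. A model of Pola1 held 206 of 1285, against 1.02 of 890. The main model of Tyms held 49.6 of 572, against 27.7 of 45, and that of Gins2 held 2.52 of 22.5, against 103 of 103.

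**Figure D4:**
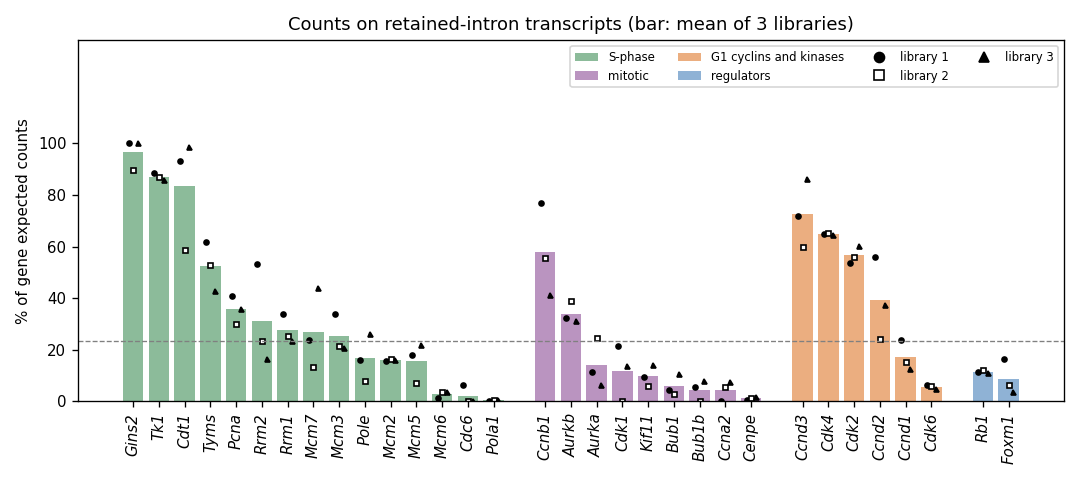
Percent of each gene's expected counts on retained-intron transcripts (y) for the 32 detected members with such a model; bars are means and points are the 3 libraries. The dashed line is the median over detected protein-coding genes with such a model (23.6%); Gins2, Tk1 and Cdt1 stand highest.

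Neighbouring annotation touches some of these values. Exons of another annotated gene overlapped 19 of 46 members, 17 of them with a gene on the opposite strand, and strand use in counting is not given in the sources used here, so reads of such pairs are uncertain. The longest overlap was of Gins2 with Gse1, over 2758 bases, and Gse1 had 6.73 ± 2.57 TPM. Cdkn1a shares 273 bases with AC167363.2, an unconfirmed opposite-strand model that itself had 271, 287 and 459 TPM. Rb1 overlaps Rcbtb2 (488 bases) and Lpar6 (408 bases), Ccnd1 overlaps LTO1 (1100 bases), and Rfc4 overlaps Eif4a2 (194 bases). Annotated pseudogene copies of Ccnd3, Ccnb1, Ccnb2, Tyms and Pcna held few counts, the most being 9, 13 and 21 for Ccnb2-ps, which exceeded those of Ccnb2. Members that are neighbours on chromosome 11 had unlike levels: Tk1 exceeded Birc5, 23.2 kb away, by 36.4-fold ± 6.93, and Top2a exceeded Cdc6, 69.0 kb away, by 9.66-fold ± 3.76.

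The libraries were compared gene by gene on counts normalised for depth and composition, given as log2 CPM. The edgeR quasi-likelihood test of spread, with Benjamini-Hochberg adjustment over 13309 genes, called 0 genes (0%) and 0 of 42 members tested. At an unadjusted p under 0.05 it gave 655 genes and 2 members, and DESeq2 marked 96 of 23976 genes as dispersion outliers, 0 of them members. The smallest member values by edgeR were those of Cdkn1b (unadjusted p = 0.0161, adjusted p = 0.874) and Mki67 (unadjusted p = 0.02, adjusted p = 0.925). Cdkn1b had 4.89, 4.72 and 5.93 log2 CPM in libraries 1 to 3, high in library 3. Mki67 had 9.91, 8.76 and 8.59 log2 CPM, high in library 1.

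A range over 1 in log2 CPM was found for 6 of 42 members (14.3%), against 14.0% of tested genes. These were Cdt1 (1.499), Mki67 (1.33), Mcm5 (1.25), Pole (1.21), Cdkn1b (1.21) and Rrm1 (1.03). On this scale S-phase genes deviated from their own means by a median of -0.16, 0.28 and 0.03 in libraries 1 to 3, and mitotic genes by -0.21, 0.15 and 0.01. Over all tested genes the medians were within 0.02 of 0. Library 2 was highest for 22 and library 3 for 17 of 42 members, and library 1 was highest for 3. Mki67 was the mitotic gene that was highest in library 1, while Top2a had 3.84, 4.58 and 3.73 log2 CPM and was highest in library 2. The amounts of starting RNA cannot be told apart from other differences between the libraries, since no 2 libraries shared an amount.

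**Figure D5:**
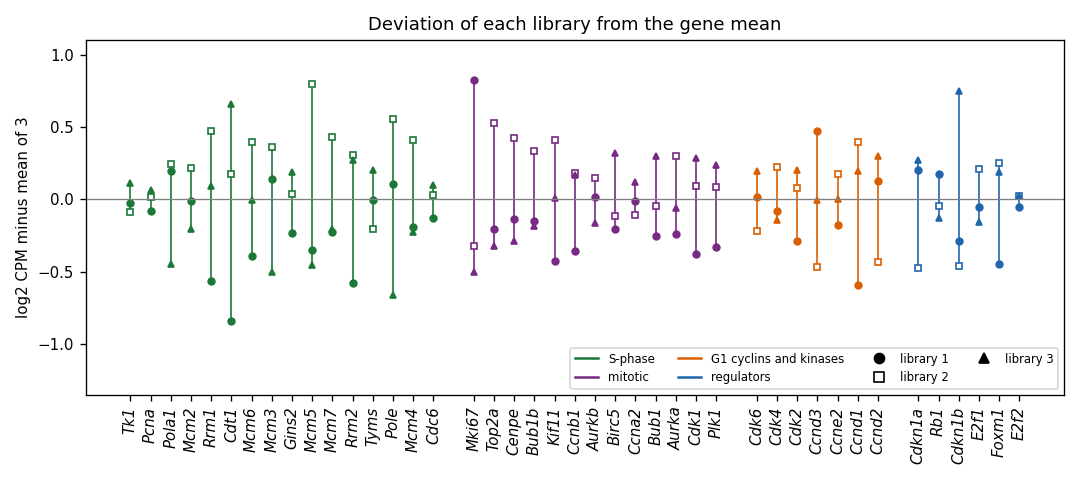
Deviation of each library from the gene's mean log2 CPM (y) for the 42 tested members; vertical lines span the 3 libraries. Cdt1, Mki67 and Mcm5 have the longest lines, and library 1 is high for Mki67 and low for Cdt1.

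Further genes of the same pathways, from lists fixed by name, were detected to a like extent. Of 40 other replication genes 36 were detected, and the median over the list was 1.96 ± 0.64 TPM. The clamp loader gene Rfc2 led at 35.1 ± 8.93 TPM, ahead of the polymerase subunit gene Pold3 at 32.4 ± 9.86 and the origin recognition gene Orc3 at 30.8 ± 12.6. Dut, Fen1, Pold2 and Rpa3 were undetected. Of 40 other mitotic genes 37 were detected, with a list median of 1.20 ± 0.54 TPM. Cenpa, the centromeric histone gene, led at 68.7 ± 47.9 TPM, or 41.1 without library 3, followed by the condensin gene Smc4 at 24.96 ± 9.87 and the passenger complex gene Incenp at 23.3 ± 8.30. Cks2, Spc24 and Ube2c were undetected. Of 30 other regulators 26 were detected, with a list median of 2.88 ± 1.33 TPM. The highest were Rbl2, a relative of Rb1, at 14.3 ± 5.74 TPM, Fzr1 at 11.8 ± 3.57 and the E2F partner gene Tfdp1 at 10.7 ± 2.83, while Cdkn2a, Cdkn2b, Cdkn2d and Cks1b were undetected. The members' own median was 1.45 ± 0.56 TPM, against 4.94 ± 1.75 over detected protein-coding genes and 0.29 ± 0.12 over all protein-coding genes. The edgeR test of spread, which called 0 of 13309 genes, compared libraries within each gene. It did not test levels or compare lists, so it cannot say whether these lists differ from other genes.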

How the data were processed

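Chromatin-fraction RNA was measured in 3 libraries of 1 group, numbered as in the labels. Per the file headers and deposited notes, the authors quantified each library on mm10 with GENCODE M21. The gene and first transcript tables hold expected counts and TPM, and the transcript table also the percent of the gene's TPM, per the file headers. The second quantification holds estimated counts and TPM, as deposited. The quantification tool is not given in the sources used here, nor its version and strand setting. TPM carries no depth.

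Members, lists and roles were chosen with earlier results of these data known. All members were matched by symbol and gene ID. All 46 could be named; per-library values were given for the 4 highest and 2 lowest of each role by mean TPM, and for those with a noncoding main transcript or an over 4-fold difference between quantifications. From each pathway list the 3 highest and up to 5 undetected genes were named. Levels are given in TPM, and the S-phase minus mitotic difference was taken between group medians of log2(TPM + 0.1).

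Spread was tested in R 4.3.3 with edgeR 4.0.16, after rounding expected counts to whole numbers (TMM, filterByExpr, intercept-only quasi-likelihood fit, deviance set against the trended prior, threshold 0.05), and checked on simulated data. The log2 CPM used a prior count of 0.5. Other tools were DESeq2 1.42.0, scipy 1.17.1, pandas 2.3.3, numpy 2.4.6, matplotlib 3.10.9 and Python 3.11.15. Alternatives were other pseudocounts, the second quantification, posterior mean TPM, means, detected members, another grouping, CPM, other count minimums, size factors, no filter, robust fitting and leaving out each library. Leaving out Mki67 or members with overlapping genes was chosen after seeing the data.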

Additional observations from a re-analysis of the deposited data

How the results depend on the processing

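S-phase minus mitotic stayed positive under every alternative run. It was 0.45 with a pseudocount of 1 and 1.62 for CPM without length correction, beyond the SD of 0.20 around 0.75, and 0.65 to 0.84 when 1 library was left out. The other alternatives gave values within that SD, from 0.59 in the second quantification to 0.85 without Mki67. The count of genes called for spread was 0 with TMM scaling, DESeq2 size factors or robust fitting, but 117 without a filter and 96 as DESeq2 dispersion outliers. It ran from 0 to 49 when 1 library was left out, with 17 without library 1, 49 without library 2 and 0 without library 3, and the cause was not tested. Members detected numbered 18 at a mean count of at least 100, 32 at a mean of at least 1 TPM, 46 in the second quantification and 42 without each library in turn. Members with a noncoding main transcript numbered 16 in the second quantification, 16 by posterior mean and 11 to 14 without 1 library. The mean TPM of single members moved by more than the SD for 23 of 46 in the second quantification and 20 with posterior means. Without 1 library the mean moved by over 1.5 times for 7 members, Ccnb1, Birc5, Cdk1, Ccnb2, Ccnd2 and Cdkn1b without library 3 and Ccne1 without library 2. No paired analysis was possible because there is 1 group. Genes with counts under 10, 4 members here, are limited by depth.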
